A study of Mus musculus with 114 samples.

Results

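The genes described here are those for the proteins of the cytosolic ribosome, measured in adipocytes of mice kept for 8, 20 or 34 weeks on chow (CD) or on high fat food (HFD). They were chosen by symbol alone, as every gene of the expression table named Rpl or Rps with a number, Rplp0 to Rplp2, or Rpsa, without the S6 kinases and the genes marked as pseudogenes. The rule found 88 of 29132 genes. They comprised 46 genes of the large subunit, 3 of them for its stalk, 31 genes of the small subunit, 10 paralogs or copies of these, and Rps19bp1, which is named after a subunit protein and is not one. The subunit genes without paralogs, copies and Rps19bp1 are called the 77 core members. All mice were male C57BL/6J animals, and the diets started at 6 weeks of age. There were 6 mice in each group except CD at 34 weeks, which had 8. RNA came from perigonadal fat that was digested with collagenase, in which the floating fraction was taken as adipocytes. Cells that cling to fat cells can float with them, and in such bulk RNA fewer cells of a type and less RNA per cell cannot be told apart.

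Every ribosome is built from a small subunit, which reads the mRNA, and a large subunit, which joins amino acids. With few exceptions each ribosome holds a like number of each protein, and their genes are usually expressed together. Most of these mRNAs begin with a C followed by a run of pyrimidines, the 5′ terminal oligopyrimidine (TOP) motif. Through it, mTOR signaling and the protein Larp1 set how strongly the mRNAs are translated, and Larp1 also stabilises them. The mRNAs are short and, in most tissues, abundant.

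The start sites show which genes carry such a run in the annotation. RefSeq (GRCm38.p6) gave a start for 65 of the 88 genes and for 57 of the 77 core members. The windows below hold 10 bases before the annotated start and 20 bases from it on the gene's strand. Capitals mark a C with at least 4 pyrimidines directly after it at the start. The first 4 genes carry the run, and Rpl38 had the largest rise from 20 to 34 weeks on CD. Rpl35 rose by 0.67 there and was higher on HFD by 0.43 at 8 weeks and by 0.41 at 20 weeks, while Rps6 and Rps27 stand for smaller changes.
Rpl38, chr11:114668570-114668599, plus strand: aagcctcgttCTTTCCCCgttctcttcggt
Rpl35, chr2:39005112-39005141, minus strand: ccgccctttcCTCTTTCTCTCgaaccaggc
Rps6, chr4:86857348-86857377, minus strand: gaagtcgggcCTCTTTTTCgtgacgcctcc
Rps27, chr3:90213629-90213658, minus strand: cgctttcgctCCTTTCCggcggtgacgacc
The next 4 genes, to which results below return, do not carry it at the annotated base.
Rpl12, chr2:32961702-32961731, plus strand: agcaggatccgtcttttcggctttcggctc
Rps16, chr7:28350679-28350708, plus strand: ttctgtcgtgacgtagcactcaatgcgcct
Rpl41, chr10:128549149-128549178, minus strand: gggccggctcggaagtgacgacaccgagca
Rpl24, chr16:55966265-55966294, plus strand: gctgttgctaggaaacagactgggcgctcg

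The run stood at the annotated start of 13 of 57 core members (22.8%), of 247 of the 8287 tested genes with a start (2.98%) and of none of 67 mitochondrial ribosomal protein genes. Anywhere within 10 bases of a start it was found on the gene's strand for 59.6% of core members and 37.6% of tested genes. Over all 27025 genes with a start it was 34.4%. In all of these counts a gene with several starts counted if any of them matched. The window of Rpl12 holds a run of pyrimidines 1 base after the annotated one. Annotated starts can be some bases away from the start used in a cell, and a missing match says only that these letters are not at that place.

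Depth was 9275711 to 15480388 reads on genes per mouse, so that 1 read was worth 0.0646 to 0.1078 CPM (reads scaled to a library total of 1000000). Adipocyte markers were high in every library, with a summed level of 18625 to 72977 CPM over 12 genes. Macrophage markers summed to 481 to 1974 CPM in CD mice at 8 weeks and reached 5816 to 17497 CPM in HFD mice at 34 weeks. In HFD mouse 3 at 34 weeks, which had the lowest adipocyte sum, macrophage markers summed to 15921 CPM and markers of lipid-associated macrophages to 14299 CPM. T cell markers summed to 0.33 to 4.11 CPM and B cell markers to 0.07 to 5.99 CPM, and 5 of 8 and 2 of 6 of these genes were listed at 0 in 19 or more mice. Of 8 genes of the epididymis and testis, 7 were listed at 0 in 19 or more mice. The labels name no day of harvest or library preparation, so time on diet, age and harvest cannot be told apart.

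The 77 core members covered a wide range of levels, and their order was much alike between groups. All of them, with 4 paralogs and Rps19bp1, passed the filter on low values (a mean log2(CPM + 1) over 2), which makes 82 of 88 genes tested. Rplp0, a protein of the stalk that recruits elongation factors, had the highest level averaged over all mice (586 CPM). Rpl4, a large subunit protein that lines the exit tunnel, followed with 575 CPM, and Rpsa, the small subunit protein also known as the laminin receptor, with 518 CPM. The order of these 3 differed between groups: the highest mean was that of Rplp0 in CD and HFD mice at 8 weeks and in CD mice at 20 weeks, of Rpl4 in HFD mice at 20 and 34 weeks (579 and 702 CPM), and of Rpsa in CD mice at 34 weeks (654 CPM). Per kilobase of transcript the core members covered 57.1 to 998 CPM, with a median of 339. The highest were Rplp2 (998 CPM per kilobase) and Rplp1 (954 CPM per kilobase), the acidic proteins that stand in the stalk in more copies than the others, and Rplp0 was at 431. Over the 82 genes the Spearman rho between group means was 0.967 to 0.994 over the pairs of groups.

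The paralogs had fewer reads per kilobase of transcript than their partners. Rps27l stood at 148 CPM per kilobase against 556 for Rps27. Rpl22l1 was at 126 CPM per kilobase against 273 for Rpl22, Rpl36al at 111 against 187 for Rpl36a, and Rpl7l1 at 46.6 against 320 for Rpl7. The 6 genes below the filter were close to absent. Rps12l1 had 4 reads in 3 mice, as did Rpl10l, and Rpl3l, the muscle form of Rpl3, had 31 reads in 17 mice. Rpl39l, Rps3a3 and Rps3a2 had mean levels of 0.215, 0.238 and 0.594 CPM. They were not tested, and the genes marked as ribosomal protein pseudogenes together took at most 0.0078% of reads in any mouse.

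The share of reads on the members was highest at 34 weeks on both diets. In CD mice it was 1.47%, 1.54% and 1.70% (lowest, median and highest) at 8 weeks. It was 1.57%, 1.70% and 1.85% at 20 weeks and 1.71%, 2.41% and 3.47% at 34 weeks. Of the 8 CD mice at 34 weeks, mouse 2 was the highest. In HFD mice the share was 1.60%, 1.76% and 1.97% at 8 weeks, 1.78%, 1.82% and 2.20% at 20 weeks and 2.10%, 2.40% and 3.42% at 34 weeks. Here mouse 4 at 34 weeks was the highest, and only the top of the HFD range at 20 weeks reached the bottom of that at 34 weeks. Large subunit reads stood to small subunit reads at a mean ratio of 1.37 to 1.44 in the 6 groups.

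**Figure D1:**
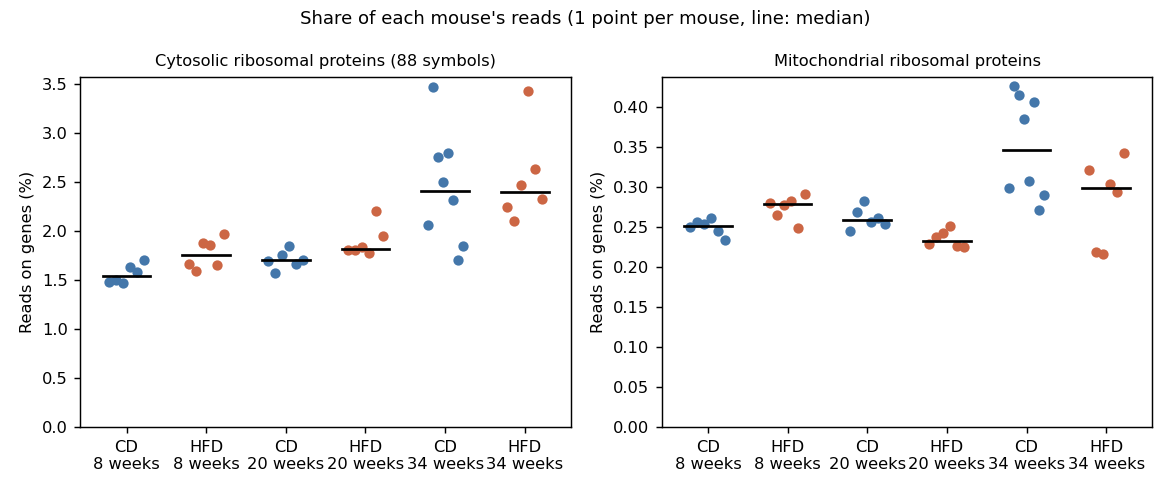
Percent of a mouse's reads on the 88 genes (vertical axis) by diet and weeks on diet (horizontal axis), with 1 point per mouse and a line at the group median, beside the same for mitochondrial ribosomal proteins. Medians were 1.54% and 1.76% at 8 weeks and 2.41% and 2.40% at 34 weeks on CD and HFD, and the 34 week groups spread the most.

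Mice also differed among themselves most at 34 weeks. The SD of log2(CPM + 1) between mice of a group, averaged over core members, was 0.107 and 0.140 at 8 weeks on CD and HFD and 0.097 and 0.131 at 20 weeks. At 34 weeks it was 0.357 on CD and 0.269 on HFD. Averaged over all tested genes it was 0.402 and 0.332 at 34 weeks, against 0.195 to 0.274 earlier. HFD mouse 4 at 34 weeks, with the highest share of its group, also had the highest sums of macrophage markers (17497 CPM) and of erythroid markers (217 CPM) of all mice. CD mouse 2 at 34 weeks, with the highest share of all mice (3.47%), had a macrophage sum of 8708 CPM, and CD mouse 5 (2.80%) had 13973 CPM. CD mice 3, 4 and 6 at 34 weeks had shares of 2.75%, 2.50% and 2.32% with macrophage sums of 2116, 2285 and 1304 CPM. CD mice 1, 7 and 8 had 2.06%, 1.71% and 1.85% with 5666, 3996 and 3799 CPM. The part of these cells in the mice's values was not tested.

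Between 20 and 34 weeks on CD the mRNAs of nearly all tested members rose. Of the 82 genes tested, 76 were higher and 1 was lower (limma, Benjamini-Hochberg adjusted over 10343 genes), where 41.1% of all tested genes were higher and 21.4% lower. The median change was 0.48 on the log2 scale for the members and 0.17 for all tested genes. Rpl38, a small protein of the large subunit, showed the largest rise, and Rpl41, the shortest ribosomal protein, the next.

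Rpl38 was at 81.1, 85.9 and 98.4 CPM (lowest, median and highest) in CD mice at 20 weeks and at 100.6, 149 and 318 CPM at 34 weeks. The groups did not overlap, and the difference was 0.84 on the log2 scale (SE 0.17, limma adjusted p = 5.96e-05, 6 and 8 mice). Rpl41 was at 264, 274 and 317 CPM at 20 weeks and at 334, 496 and 778 CPM at 34 weeks. All 8 older mice lay above all younger ones, by 0.79 (SE 0.13, limma adjusted p = 6.17e-06). Rpl36al and Rps16, a small subunit protein near the decoding site, rose by 0.74 and 0.73, and Rpl13a, which has a known second role in silencing interferon response mRNAs, by 0.72. The gene that fell was Rpl24.

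The 5 genes that did not pass the test were Rpl10a (0.08, adjusted p = 0.514), Rpl3 (0.19, adjusted p = 0.0918), Rpl36 (0.22, adjusted p = 0.0527), Rplp2 (0.35, adjusted p = 0.0688) and Rps6 (0.21, adjusted p = 0.0601). Rps6, the substrate of the S6 kinases, was at 130, 140 and 161 CPM at 20 weeks and at 124, 164 and 212 CPM at 34 weeks, and these ranges overlapped. With the values rescaled by TMM, which lowered the median of all genes by 0.15, 54 members were higher and 1 lower, beside 29.4% of all tested genes higher. Without CD mouse 2 and HFD mouse 4 of 34 weeks, left out after seeing the data, 74 were higher and 1 lower, beside 39.7% and 20.2% of all tested genes. With only the CD mice of 20 and 34 weeks in the fit, 70 were higher and 1 lower, beside 34.6% and 18.8%.

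On HFD, too, the mRNAs of most tested members were higher at 34 than at 20 weeks. Between 20 and 34 weeks 76 members were higher and 1 was lower, where 17.8% of all tested genes were higher and 12.5% lower. The median change was 0.41 for the members and 0.06 for all tested genes. Rps29 and Rps23, a zinc finger protein and a decoding site protein of the small subunit, had the largest rises.

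Rps29 was at 234, 244 and 317 CPM in HFD mice at 20 weeks and at 302, 356 and 545 CPM at 34 weeks, a difference of 0.54 (SE 0.16, limma adjusted p = 0.0108). Rps23 went from 174, 184 and 229 CPM to 226, 259 and 423 CPM, a difference of 0.52 (SE 0.15, limma adjusted p = 0.00883). For both genes the lowest mice at 34 weeks lay within the range at 20 weeks. The 5 members not called were Rpl36, Rplp2, Rpl7l1, Rps19bp1 and Rps27l. The count depended on HFD mouse 4: without it 32 members were higher and 1 lower, beside 12.2% and 8.08% of all tested genes. Without it and CD mouse 2, 55 were higher and 1 lower, beside 13.6% and 8.55%, and under median-of-ratios scaling 37 were higher and 1 lower, beside 11.3% and 15.4%. After TMM, 57 were higher and 1 lower, beside 14.0% of all tested genes higher. With only the HFD mice of 20 and 34 weeks in the fit, 65 were higher and 1 lower, beside 17.4% and 11.8%.

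**Figure D2:**
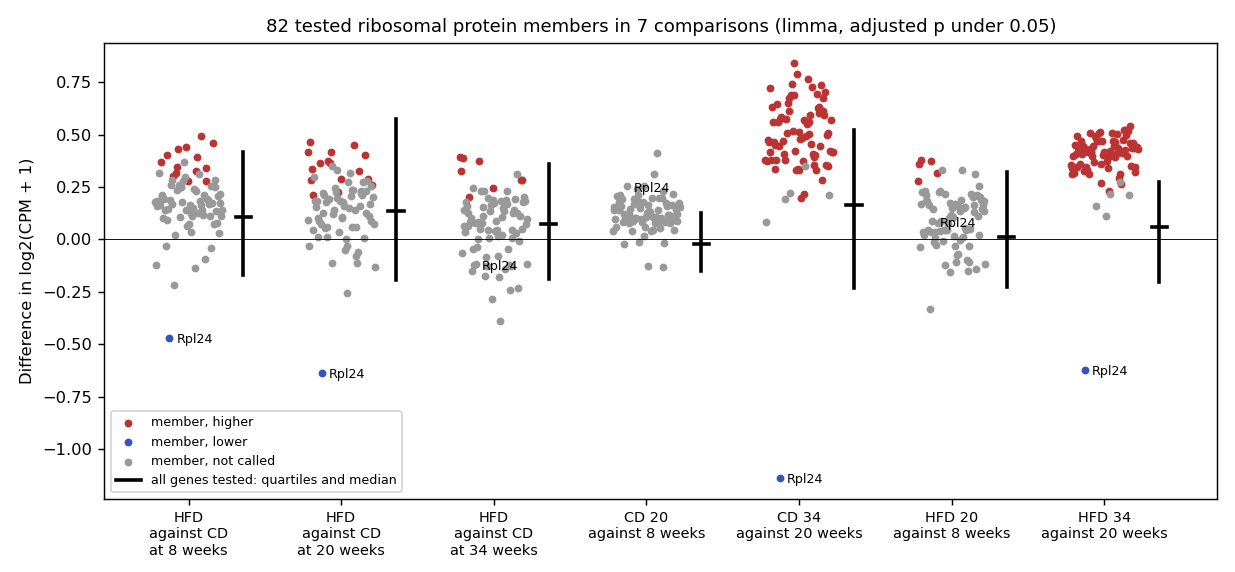
Log2 fold change of each tested member (points) in 7 comparisons of diet and of time, colored by call, with the median and quartiles of all tested genes as a black bar. The 34 against 20 week columns lie mostly above 0 on both diets, with medians of 0.48 and 0.41, while the diet columns have medians of 0.18, 0.18 and 0.09.

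From 8 to 20 weeks little passed the test. On CD no member was called by limma, where 1.7% of all tested genes were higher and 1.88% lower, and edgeR on recovered reads also called none. At an unadjusted p under 0.05 limma gave 4 members and edgeR 4, and the median change was 0.12 for members and -0.02 for all tested genes. On HFD 5 members were higher and none was lower, where 21.2% of all tested genes were higher and 15.3% lower. These were the large subunit proteins Rpl10, Rpl10a, Rpl12, Rpl23 and Rpl3.

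Rpl12, a protein of the stalk base, went from 159, 199 and 238 CPM in HFD mice at 8 weeks to 221, 252 and 302 CPM at 20 weeks (0.38, limma adjusted p = 0.0444). Rpl23 went from 220, 258 and 281 CPM to 293, 316 and 388 CPM, ranges that did not overlap (0.37, SE 0.14, limma adjusted p = 0.0359). This count was small and moved with single mice: it was 2 without HFD 8 week mouse 1, 3 (1 of them lower) without mouse 2 and 3 without mouse 5. It was 2 without HFD 20 week mouse 3, 1 without mouse 5 and 2 without mouse 6.

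After 8 weeks on diet, 14 members were higher in HFD mice than in CD mice and 1 was lower. Among all tested genes 29.8% were higher and 15.1% lower, and the members' 14 of 82 was a smaller share than this. With only the 8 week mice in the fit 42 members were higher and 2 lower, beside 36.3% of all tested genes higher, so the order of these shares turned with the fit. The median difference was 0.18 for the members and 0.11 for all tested genes. The largest differences were in Rps16, Rps27l and Rpl41, with Rpl24 on the other side.

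Rps16 was at 83.6, 92.9 and 110 CPM in CD mice and at 109, 135 and 163 CPM in HFD mice (0.49, SE 0.13, limma adjusted p = 0.00377). The highest CD mouse just reached the lowest HFD mouse. Rps27l, a paralog that is a known target of p53, was at 49.8, 55.2 and 60.4 CPM on CD and at 51.5, 78.6 and 96.8 CPM on HFD (0.46, SE 0.14, limma adjusted p = 0.00733). Rpl41 was at 200, 236 and 256 CPM on CD and at 277, 323 and 369 CPM on HFD, without overlap (0.44, SE 0.14, limma adjusted p = 0.0113).

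The direction of the smaller differences depended on the scaling. TMM lowered the median of all genes by 0.10 at 8 weeks, 0.21 at 20 weeks and 0.09 at 34 weeks. At 8 weeks 4 members were then higher (Rps16, Rps27l, Rpl35 and Rpl15) and 2 lower (Rpl24 and Rpl3), beside 22.6% of all tested genes higher and 21.4% lower. The number of calls fell from 15 to 7 without HFD 8 week mouse 3 or mouse 6 and to 9 without mouse 4.

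After 20 weeks 16 members were higher on HFD and 1 was lower, where 38.3% of all tested genes were higher and 18.7% lower. With only the 20 week mice in the fit 42 were higher and 2 lower, beside 42.5% and 22.5% of all tested genes. The median difference was 0.18 for the members and 0.14 for all tested genes. The largest were in Rpl12, Rps16 and Rpl10, a late joining protein of the large subunit that completes its active site. Each of the 3 separated the diets without overlap.

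Rpl12 was at 169, 182 and 211 CPM on CD and at 221, 252 and 302 CPM on HFD (0.46, SE 0.15, limma adjusted p = 0.00803). Rps16 was at 99.4, 107 and 120 CPM on CD and at 131, 145 and 182 CPM on HFD (0.45, limma adjusted p = 0.00481). Rpl10 was at 349, 379 and 395 CPM on CD and at 442, 497 and 590 CPM on HFD (0.42, SE 0.10, limma adjusted p = 0.000826). After TMM the members' median was -0.04, none of the 82 was higher and 5 were lower (Rpl24, Rplp2, Rpsa, Rpl36 and Rps2), beside 26.3% of all tested genes higher and 32.4% lower. The number of calls went from 17 to 7 without CD 20 week mouse 2, 10 without mouse 3 and 9 without mouse 5, and to 11, 7 and 10 without HFD 20 week mouse 3, 5 and 6.

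After 34 weeks 8 members were higher on HFD and none was lower, where 27.5% of all tested genes were higher and 15.7% lower. With only the 34 week mice in the fit 1 was higher and none lower, beside 16.4% and 7.39% of all tested genes. Medians were 0.09 and 0.07. Rpl10 and Rpl12 were among them again, together with Rpl3, which sits at the active site of the large subunit. The others were Rpl10a, Rpl19, Rpl5, which brings 5S RNA to the ribosome, Rps3, which also acts in DNA repair, and Rps4x.

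Rpl10 was at 401, 485 and 623 CPM on CD and at 510, 621 and 906 CPM on HFD (0.39, SE 0.10, limma adjusted p = 0.00164). Rpl12 was at 188, 252 and 377 CPM on CD and at 267, 332 and 472 CPM on HFD (0.39, SE 0.14, limma adjusted p = 0.0239). Rpl3 was at 282, 387 and 465 CPM on CD and at 392, 481 and 653 CPM on HFD (0.38, SE 0.10, limma adjusted p = 0.00349). All of these ranges overlapped, with the middle of the HFD mice at or near the top CD mice for Rpl10 and Rpl3.

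After TMM 2 members were higher at 34 weeks (Rpl10 and Rpl3) and 4 lower (Rplp2, Rpl41, Rps19bp1 and Rps27l), beside 22.4% of all tested genes higher and 20.8% lower. The number of calls went from 8 to 18 without CD 34 week mouse 2, to 14 without mouse 5 and to 5 without mouse 8. It fell to 4 without HFD 34 week mouse 3, 4 or 5. Without HFD mouse 4 the 4 calls were 2 higher and 2 lower, beside 25.5% and 13.4% of all tested genes. The median difference was then 0.0004 for the members and 0.09 for all tested genes. The diet comparison and the comparisons of time at 34 weeks share the same mice, as do those at 20 weeks.

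The diet difference itself changed with time for 6 members. Between 34 and 8 weeks the HFD minus CD difference grew for 2 (Rpl3 and Rpl10a) and shrank for 4 (Rpl41, Rps27l, Rpl22l1 and Rps2), where it was called higher for 13.0% and lower for 15.9% of all tested genes. Between 20 and 8 weeks no member was called (2.81% and 1.67% of all tested genes), with 2 members at an unadjusted p under 0.05 by limma and 3 by edgeR. Between 34 and 20 weeks none was called either (4.22% and 6.31% of all tested genes), with 3 by limma and 3 by edgeR at an unadjusted p under 0.05. Adjusted, edgeR also called none in both.

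Rpl3 stood at 289, 325 and 344 CPM in CD mice and at 246, 274 and 303 CPM in HFD mice at 8 weeks, a difference of -0.22 that did not pass the test (limma adjusted p = 0.0988). Its difference of 0.38 at 34 weeks lay 0.59 above that (SE 0.15, limma adjusted p = 0.00316). Rpl10a was at 128, 144 and 157 CPM on CD and at 120, 130 and 143 CPM on HFD at 8 weeks, and at 124, 164 and 246 CPM on CD and at 168, 205 and 281 CPM on HFD at 34 weeks. Its diet difference went from -0.12 (limma adjusted p = 0.374) to 0.32 (limma adjusted p = 0.0132), a change of 0.45 (SE 0.15, limma adjusted p = 0.0272).

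Rpl41 moved the other way. At 34 weeks it was at 334, 496 and 778 CPM on CD and at 297, 412 and 501 CPM on HFD, a difference of -0.28 that did not pass the test (limma adjusted p = 0.0774). Against the 0.44 at 8 weeks this was a change of -0.73 (SE 0.19, limma adjusted p = 0.00514). The changes were -0.69 for Rps27l (SE 0.19, limma adjusted p = 0.00615), -0.55 for Rpl22l1 (SE 0.21, limma adjusted p = 0.0427) and -0.41 for Rps2 (SE 0.13, limma adjusted p = 0.022). After TMM Rpl3, Rpl10a, Rpl41 and Rps27l were called in the same directions. Without CD 34 week mouse 7 the number of calls was 10, 2 higher and 8 lower.

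**Figure D3:**
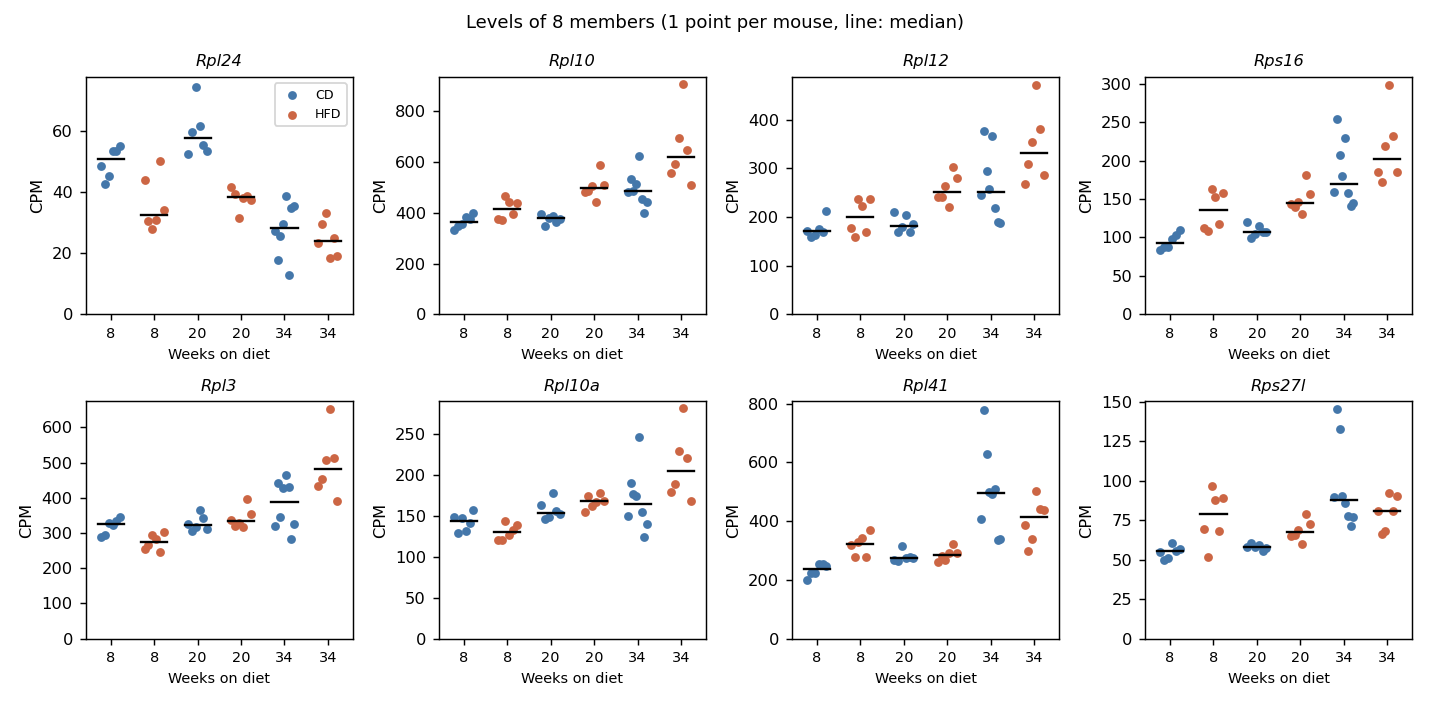
CPM per mouse (vertical axis) by diet and weeks on diet (horizontal axis) for Rpl24, Rpl10, Rpl12, Rps16, Rpl3, Rpl10a, Rpl41 and Rps27l, with 1 point per mouse and a line at the median. Rpl41 separates the diets at 8 weeks (200 to 256 against 277 to 369 CPM), while Rpl24 is lower on HFD at 20 weeks (31.6 to 41.6 against 52.5 to 74.5 CPM) and lowest on both diets at 34 weeks.

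Differences between members within a mouse need no scaling between mice. Relative to the mean of the core members of the same mouse, on the log2 scale, Rpl3 was lower on HFD than on CD by a mean difference of -0.395 at 8 weeks and higher by 0.289 at 34 weeks. Rpl10a went from -0.304 to 0.238 and Rpl41 from 0.263 to -0.37. Rpl10 was higher on HFD by 0.255 at 20 weeks and 0.305 at 34 weeks, and Rpl12 by 0.304 and 0.30. Rplp2 was lower on HFD at all times, by -0.315, -0.416 and -0.475, although its own diet differences on the CPM scale did not pass the test (-0.39 at 34 weeks, limma adjusted p = 0.0607). These relative values were not tested.

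Rpl24, a large subunit protein that bridges to the small subunit, went against the rest. It was at 42.6, 50.9 and 54.9 CPM on CD and at 28.0, 32.4 and 50.2 CPM on HFD at 8 weeks (-0.47, SE 0.18, limma adjusted p = 0.0344). At 20 weeks it was at 52.5, 57.5 and 74.5 CPM on CD and at 31.6, 38.3 and 41.6 CPM on HFD, and the groups did not overlap (-0.64, SE 0.18, limma adjusted p = 0.00338). At 34 weeks it was at 12.7, 28.4 and 38.8 CPM on CD and at 18.3, 24.0 and 33.0 CPM on HFD.

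From 20 to 34 weeks Rpl24 thus fell by 1.14 on CD (SE 0.17, limma adjusted p = 1.1e-06), with every older mouse below every younger one, and by 0.62 on HFD (SE 0.18, limma adjusted p = 0.0101). It had the lowest mean level of the core members (38.6 CPM). On the same strand, 47.0% of its exon bases (GENCODE vM21) are also exon bases of Gm28037, and 80.9% of its 75-base stretches are found in 5 other genes. Reads in such stretches may have been counted elsewhere or not at all, so the level of Rpl24 is uncertain, and the part of this in its changes was not tested. Rpl13a, with 35.4% of its exon bases overlapped on the same strand and 48.5% of its 75-base stretches shared, rose on CD. It differs from Rpl24 in both measures, so its rise cannot tell what part overlap has in Rpl24.

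Of the stalk proteins, Rplp0 and Rplp1 were higher at 34 weeks and Rplp2 did not pass the test. Rplp1 rose from 377, 404 and 501 CPM at 20 weeks to 399, 628 and 990 CPM at 34 weeks on CD (0.57, limma adjusted p = 0.000458), and by 0.42 on HFD (limma adjusted p = 0.0249). Rplp0 rose by 0.22 on CD (limma adjusted p = 0.0224) and 0.23 on HFD (limma adjusted p = 0.0437). Rplp2 had changes of 0.35 on CD (limma adjusted p = 0.0688) and 0.22 on HFD (limma adjusted p = 0.378). On the CPM scale none of the 3 was called between diets, while after TMM Rplp2 was lower on HFD at 20 weeks (-0.47, limma adjusted p = 0.0365) and at 34 weeks (-0.48, limma adjusted p = 0.0321).

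Several of these proteins have known roles outside the ribosome. Rpl5 and Rpl11, which bind Mdm2 and so stabilise p53 when ribosome assembly is disturbed, rose from 20 to 34 weeks by 0.34 and 0.37 on CD and by 0.40 and 0.34 on HFD. Rpsa rose by 0.42 and 0.43. Rps27a, which is made fused to ubiquitin, rose by 0.61 and 0.52 and was higher on HFD at 20 weeks by 0.40 (limma adjusted p = 0.0411). Rps6 rose on HFD by 0.32 (limma adjusted p = 0.0188), and on CD its change of 0.21 did not pass.

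Paralogs and partners rose together from 20 to 34 weeks on CD. Rps27 and Rps27l rose by 0.28 and 0.68, Rpl22 and Rpl22l1 by 0.38 and 0.65, Rpl36a and Rpl36al by 0.69 and 0.74, and Rpl7 and Rpl7l1 by 0.33 and 0.20, all past the test. On HFD Rpl22 and Rpl22l1 rose by 0.47 and 0.41 and Rpl36a and Rpl36al by 0.48 and 0.47. Rps27 and Rpl7 each rose by 0.40, while Rps27l (0.21) and Rpl7l1 (0.11) did not pass. Rps27l and Rpl22l1 were also higher on HFD at 8 weeks (0.46 and 0.40), and their partners were not called there. Whether a paralog and its partner differ in change was not tested.

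Mouse by mouse, the core members varied together. After the group means were taken out, the mean correlation between pairs of core members over 38 mice was 0.827. It was 0.59 for mitochondrial ribosomal proteins, 0.307 for ribosome assembly factors, 0.214 for elongation factors, 0.097 for initiation factors and 0.035 for all tested genes. Each core member had an r of 0.65 (Rpl36) to 0.985 with the mean of the others, except Rpl24 with -0.321. All points share library depth and scaling, and with the spread largest at 34 weeks those mice weigh most.

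Across all tested genes the change from 20 to 34 weeks went with transcript length. Core members had transcripts of 271 to 3706 bases (median 681). Length was that of the shortest coding transcript in the consensus coding set (CCDS), or else the median over a gene's coding transcripts. The longest, 3706 bases, was that of Rps20, and its 64.6 CPM per kilobase depends on this choice. Genes other than members with transcripts of at most 1000 bases (826 genes) had a median change of 0.45 from 20 to 34 weeks on CD, with 65.1% higher. The 65 members of that length had 0.50 and 92.3%. On HFD these medians were 0.26 (31.6% higher) for other short genes and 0.42 (92.3% higher) for short members. Genes over 5000 bases had medians of -0.16 on CD and -0.21 on HFD.

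Between diets the short genes shifted too. At 8 weeks other short genes had a median of 0.24 with 38.4% higher, and short members had 0.19 with 16.9%. At 34 weeks other short genes had a median of -0.13, with 16.0% higher and 30.4% lower, and short members had 0.08, with 6.15% higher and none lower. Across the 77 core members the Spearman rho between length and change was -0.273 on CD and -0.211 on HFD from 20 to 34 weeks, and -0.127 and 0.117 from 8 to 20 weeks. For the diet difference it was -0.103, 0.108 and 0.306 at 8, 20 and 34 weeks. The part of fragment length or RNA integrity in these values was not tested.

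**Figure D4:**
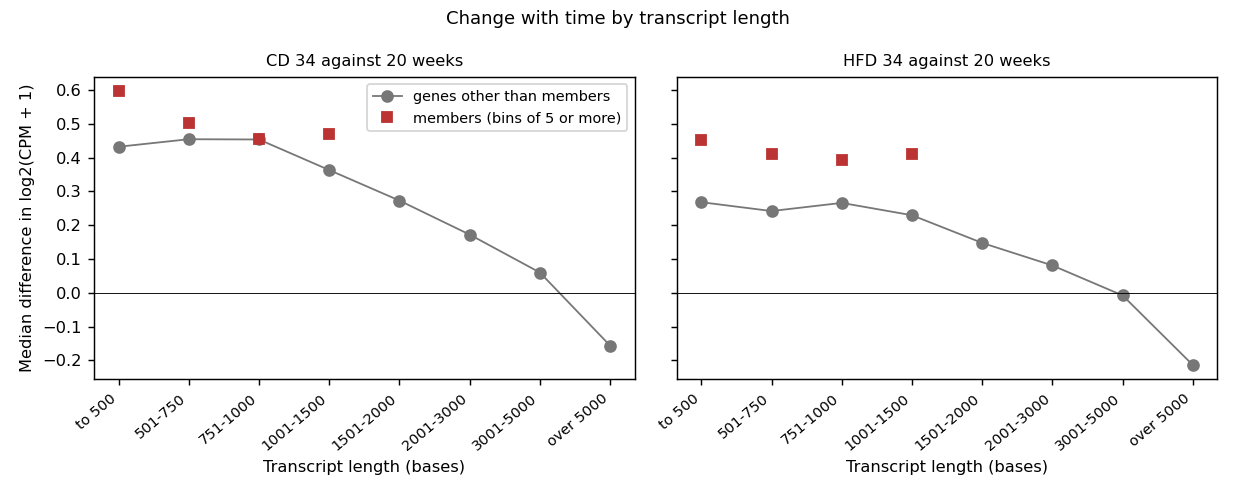
Median log2 fold change (vertical axis) by transcript length in bases (horizontal axis) for members and for other tested genes. From 20 to 34 weeks other genes of up to 500 bases had medians of 0.43 on CD and 0.27 on HFD (members 0.60 and 0.45), and those over 5000 bases had -0.16 and -0.21.

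Many members have near-identical copies in the genome. The median core member shared 35.5% of its 75-base stretches with another gene, the range was 0 to 92.5%, and 2 had no shared stretch. Of the 39 core members that shared less, 38 were higher from 20 to 34 weeks on CD, with a median of 0.51. Of the 38 that shared more, 33 were, with a median of 0.43. Between diets at 34 weeks, 1 of the 39 and 7 of the 38 were higher on HFD, beside 27.5% of all tested genes. At 8 weeks 6 and 6 were higher (29.8% of all tested genes), and at 20 weeks 7 and 9 (38.3%). The part of shared sequence in the diet differences was not tested. Splitting by the start sequences shown above, 11 of the 13 core members with a run at the annotated start were higher from 20 to 34 weeks on CD and 12 on HFD. Of the 44 without it, 42 and 43 were.

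Of the ribosomal proteins that the symbol rule left out, Fau, made as a fusion to a ubiquitin-like protein, rose from 20 to 34 weeks by 0.63 on CD (SE 0.15, limma adjusted p = 0.000578) and by 0.55 on HFD (limma adjusted p = 0.0106). Rack1 was not used here.

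Other parts of the translation machinery are given as counts of calls, and their medians carry the same scaling shifts. From 20 to 34 weeks 41.1% of all tested genes were higher and 21.4% lower on CD, and 17.8% and 12.5% on HFD. Between diets these shares were 29.8% and 15.1% at 8 weeks, 38.3% and 18.7% at 20 weeks and 27.5% and 15.7% at 34 weeks. Of 75 mitochondrial ribosomal proteins, which serve the separate ribosome inside mitochondria, 57 were higher (76.0%) and 1 lower from 20 to 34 weeks on CD, and 28 (37.3%) and 1 on HFD. Between diets 21 were higher and 5 lower at 8 weeks, 4 and 25 at 20 weeks, and 0 and 36 at 34 weeks, with medians of 0.12, -0.12 and -0.25. In the cytosolic members the counts at 34 weeks were 8 and 0. The diet difference at 34 minus 8 weeks was higher for 1 and lower for 33 of the mitochondrial genes. Among them Mrps6 was higher on HFD at 8 weeks by 1.00 (SE 0.19) and Mrpl38 lower by -0.93 (SE 0.24).

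Ribosome assembly factors, which process ribosomal RNA and join it to the proteins in the nucleolus, fell more often than they rose on CD at 34 weeks. Of 37, 8 were higher (21.6%) and 16 lower (43.2%) from 20 to 34 weeks on CD, and 8 (21.6%) and 5 (13.5%) on HFD, the latter near the shares of all genes. Between diets 3 were higher and 15 lower at 8 weeks, 5 and 6 at 20 weeks, and 10 and 2 at 34 weeks, with medians of -0.31, -0.00 and 0.16, and 20 had a diet difference that was higher at 34 than at 8 weeks and 2 a lower one. Nop58, a core protein of the box C/D particles that guide RNA methylation, was lower on HFD at 8 weeks by -1.08 (SE 0.18, limma adjusted p = 2.51e-05) and fell by 1.78 on CD from 20 to 34 weeks (SE 0.17, limma adjusted p = 3.05e-10). Noc4l and Rrs1 were lower on HFD at 8 weeks by -1.05 and -0.99.

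Of 14 genes of RNA polymerase I and its factors, 5 were higher and 4 lower from 20 to 34 weeks on CD and 3 and 0 on HFD, and 1 and 4, 1 and 2, and 0 and 0 between diets at 8, 20 and 34 weeks. Of 39 initiation factors 13 were higher (33.3%) and 8 lower on CD and 14 (35.9%) and 5 on HFD from 20 to 34 weeks, and 4 and 7, 5 and 8, and 10 and 3 between diets. Eif4a2, an RNA helicase of initiation, was lower on HFD at 20 weeks by -0.81 (SE 0.12), while Eif4a1 was higher at 34 weeks by 0.55 (SE 0.10). Of 9 elongation factors 6 were higher and 1 lower on CD and 4 and 0 on HFD from 20 to 34 weeks, and 3, 2 and 3 were higher and none lower between diets. Eif5a, which helps ribosomes past stalling sequences, was higher on HFD at 8 weeks by 0.46 (SE 0.09).

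Of 20 other mRNAs known to start with a TOP motif, 9 were higher (45.0%, near the share of all genes) and 2 lower on CD and 10 and 0 on HFD from 20 to 34 weeks. Between diets 3 were higher and 4 lower at 8 weeks, 4 and 1 at 20 weeks and 7 and 1 at 34 weeks. Of 16 regulators of ribosomal protein synthesis 3 were higher and 8 lower on CD and 2 and 5 on HFD from 20 to 34 weeks, and 1 and 3, 3 and 4, and 1 and 4 between diets. Myc, which drives transcription of ribosomal genes, fell by 1.58 on CD and by 1.52 on HFD from 20 to 34 weeks. Eif4ebp1, a repressor of initiation that mTOR switches off, was lower on HFD at 34 weeks by -1.08 (SE 0.16).

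**Figure D5:**
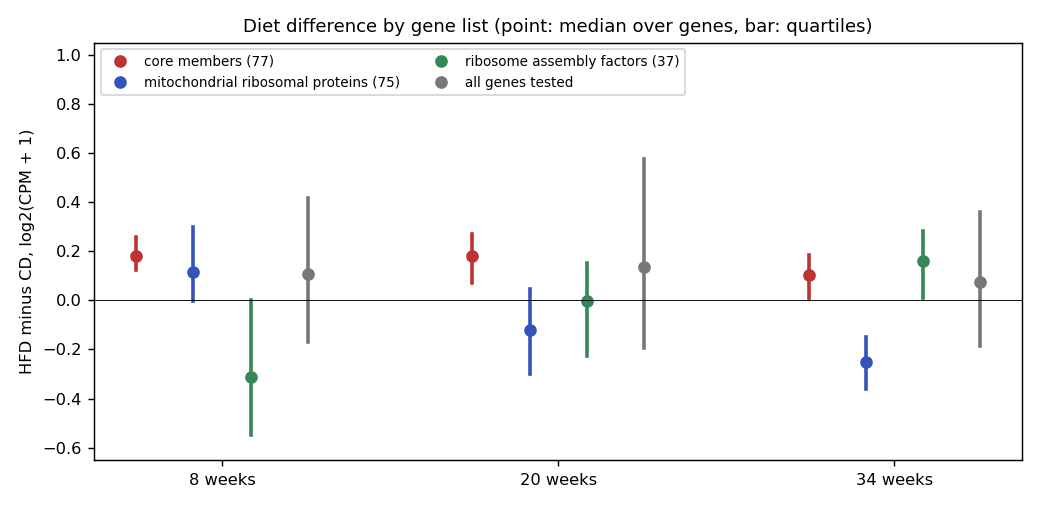
HFD minus CD difference (log2, vertical axis) at 8, 20 and 34 weeks for core members, mitochondrial ribosomal proteins, assembly factors and all tested genes, with points at the median over genes and bars over the quartiles. Mitochondrial ribosomal proteins go from 0.12 to -0.25 and assembly factors from -0.31 to 0.16, while the core members go from 0.18 to 0.10.

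Markers of other cells moved in the same comparisons. Of all tested genes, 41.1% were higher and 21.4% lower from 20 to 34 weeks on CD, and 17.8% and 12.5% on HFD. Between diets 29.8%, 38.3% and 27.5% of them were higher at 8, 20 and 34 weeks, and 15.1%, 18.7% and 15.7% lower. Of 15 macrophage markers 8 were higher and 2 lower from 20 to 34 weeks on CD and none was called on HFD, and between diets 10, 11 and 13 were higher and 0, 1 and 0 lower. All 10 markers of lipid-associated macrophages were higher on CD at 34 than at 20 weeks and none was called on HFD. Adipocyte markers were lower on HFD in 2, 9 and 10 of 12 cases at 8, 20 and 34 weeks, higher in 1, 1 and 0. The 2 of 12 lower at 8 weeks were near the share of all tested genes. On CD 2 were higher and 4 lower from 20 to 34 weeks and on HFD none was called. Their median changes on HFD were 0.57 for macrophage markers, 12 of 15 positive, 0.36 for those of lipid-associated macrophages and -0.14 for those of adipocytes. Endothelial markers were higher on HFD than on CD in 8, 7 and 6 of 8 cases at 8, 20 and 34 weeks, and none was called between 20 and 34 weeks. Progenitor and fibroblast markers were higher on HFD in 5, 8 and 4 of 8 cases, 4 were higher and 1 lower from 20 to 34 weeks on CD, and 0 and 1 on HFD. Of 3 mesothelial markers 2 were higher on HFD at 8 weeks and 1 was lower at 34 against 20 weeks on HFD, and of 2 erythroid genes 1, 0 and 2 were higher between diets. The part of cell composition in the members' changes was not tested.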

How the data were processed

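Libraries of 38 mice in 6 groups were analysed. The labels list 114 samples, 3 technical replicates of each mouse, and the deposited table holds 1 merged column per mouse. Per the submitters' processing notes and the study's methods, the authors aligned reads with STAR 2.5.2b to mm10 and counted them per gene with featureCounts (Subread 1.5.1). The deposited values are CPM. The methods name TMM, but each deposited column sums to 1000000. Low values were whole multiples of what 1 read is worth, and 100% of values came out within 0.1 reads of a whole number; an edgeR quasi-likelihood test on these reads was an added alternative to the main test. The median depth was 12522298 reads, and no interval is given that would cover more than counting error.

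Log2(CPM + 1) of 10343 genes with a mean over 2 was fitted with limma 3.58.1 (R 4.3.3) over all 6 groups, with a trended prior and no covariate, and p-values were Benjamini-Hochberg adjusted over all of them with a threshold of 0.05. Fold changes are on this scale, which understates low genes. Mice are the replicates. The fit took 1 variance per gene over all groups, although mice spread more at 34 weeks than earlier. SEs and p-values may thus be too small for comparisons with 34 weeks and too large for the others. The alternatives were TMM and median-of-ratios scaling, edgeR 4.0.16, another pseudocount, no filter, only the groups compared, a replicate block, and each mouse left out. On simulated reads for CD at 34 against 20 weeks (10343 genes), limma recovered 25% of genes changed 1.4-fold and 99% of genes changed 2-fold, and edgeR 26% and 100%. In this simulation 100 genes were changed at each fold, all genes had the same dispersion, and each was drawn independently. In the real data far more genes were called and the members varied together, so these percentages do not give the power for the members. Sequences, positions and start sites came from RefSeq (GRCm38.p6), and lengths, overlaps and shared stretches from GENCODE vM21, which gave a coding transcript for 85 members; transcripts are not those the authors counted on. No column of the table was left out, and the table holds no comparisons by the authors.

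The members, lists and named genes were chosen with earlier results of these data known. The text names members with known second roles, paralog pairs, the up to 3 called members with the largest rise and fall in each diet comparison and in each change of the diet difference (up to 2 between times), the 3 most and the 3 least abundant, ribosomal proteins outside the rule and, of each other list, up to 3 called genes with the largest change between diets. Other called members are named only to complete a count.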

Additional observations from a re-analysis of the deposited data

Results flagged for a closer look

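Of 204 sets of values (named members by group of mice), 15 held a mouse that stood apart from its group by Dixon's criterion, which chance does in about 1 of 20. In HFD mice at 34 weeks, mouse 4 stood above the other 5 for 8 members. It had 217 CPM of Rpl22 (others 135 to 165), 389 CPM of Rpl5 (240 to 295), 633 CPM of Rpl7 (410 to 479) and 356 CPM of Rps27 (196 to 251). It also had 569 CPM of Rps27a (304 to 391), 649 CPM of Rpl23 (373 to 469), 545 CPM of Rps29 (302 to 385) and 423 CPM of Rps23 (226 to 288). These genes rise and fall together between mice, so the 8 are not independent.

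HFD mouse 5 at 20 weeks stood above the others with 93.5 CPM of Rpl36a and 490 CPM of Rps4x. HFD mouse 6 at 8 weeks had 486 CPM of Rplp1. CD mouse 3 at 20 weeks had 501 CPM of Rplp1 and 317 CPM of Rpl41, and CD mouse 6 at 8 weeks had 212 CPM of Rpl12 and 267 CPM of Rpl23.

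The difference between diets differed between 34 and 8 weeks, by limma's test of that change over 10343 genes, for 6 members: by 0.59 for Rpl3, 0.45 for Rpl10a, -0.73 for Rpl41, -0.69 for Rps27l, -0.55 for Rpl22l1 and -0.41 for Rps2.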

How the results depend on the processing

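With each mouse left out in turn, 74 to 81 members were called at 34 against 20 weeks on CD and 33 to 78 on HFD, 0 and 1 to 6 at 20 against 8 weeks, and 7 to 19, 7 to 23 and 4 to 18 between diets at 8, 20 and 34 weeks. The change of the diet difference gave 4 to 10 calls from 8 to 34 weeks and 0 to 0 in the other pairs of times. Under TMM and under edgeR the diet gave 6 calls at 8 weeks (4 higher, 2 lower) and 5 at 20 weeks (0 and 5), and HFD at 20 against 8 weeks gave 2. Under median-of-ratios scaling these were 6, 1 and 1, and HFD at 34 against 20 weeks gave 38 (37 and 1). Without the filter, diet at 20 weeks gave 11 and HFD at 20 against 8 weeks gave 2. With only the groups compared in the fit, diet gave 44, 44 and 1 calls at 8, 20 and 34 weeks (42, 42 and 1 higher, beside 36.3%, 42.5% and 16.4% of all tested genes). At 20 against 8 weeks there were 4 on CD, all higher, beside 2.75% of all tested genes. On HFD there were 16 (15 higher and 1 lower, beside 27.3% and 21.7%). The changes of the diet difference gave 6 for 20 minus 8 weeks (1 and 5, beside 15.7% and 10.4%). For 34 minus 8 weeks they gave 3 (1 and 2, beside 9.78% and 12.3%). Without CD mouse 2 and HFD mouse 4 of 34 weeks, chosen after seeing the data, diet at 8 weeks gave 25 (24 higher and 1 lower). Beside them 30.5% of all tested genes were higher and 15.8% lower. In that setting 20 against 8 weeks gave 1 on CD, higher, beside 1.83% of all tested genes. On HFD it gave 9 (8 higher and 1 lower), beside 21.6% and 16.1%. The median diet difference of the members at 20 weeks was -0.04 under TMM and under edgeR.

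With the mouse number as a replicate block, diet at 34 weeks gave 13 calls (2 higher and 11 lower, with a median of -0.06). Beside them 28.0% of all tested genes were higher and 15.7% lower. The diet difference at 34 minus 8 weeks gave 21 (1 and 20), beside 14.2% and 16.6% of all tested genes. Numbers do not pair the mice: deviations of same-numbered mice had a mean correlation of -0.038 over 90 pairs, against 0.0067 over 510 others. No called result of a named gene changed direction under any of these settings. Of 72 calls of named members, 37 were kept under TMM, 34 under median-of-ratios scaling, 42 under edgeR, 72 with another pseudocount, 60 without the filter, 57 with only the groups compared and 67 with the block. The cause of the other changes was not tested. Depth does not limit the core members, but 6 members had too few reads to test.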
